A study of Mus musculus with 6 samples.

Results

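The semaphorin, ephrin and SLIT guidance genes were described in the aortas of mice with and without miRNA-26b. Members were all genes of the count table whose symbol belongs to the semaphorins, the plexins and neuropilins, the Eph receptors, the ephrins or the Slits and Robos. This gave 60 of the 55341 genes in the table: 20 semaphorins, 11 plexins and neuropilins, 14 Eph receptors, 8 ephrins, and 7 Slits and Robos. Of these, 50 passed the filter on low counts (more than 1 CPM, the counts of a gene scaled to library size, in at least 2 libraries) and were among the 16017 genes tested.

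RNA was sequenced from 3 miRNA-26b-/- and 3 miRNA-26b+/+ mice, 1 library per mouse. All mice were 8 weeks old, fed chow and labelled C57BL/6NCrl, and the tissue explanted after perfusion was the arch and the thoracic part of the aorta. The knockout libraries are called KO1, KO2 and KO3 and the wild-type libraries WT1, WT2 and WT3, where the numbers are names only. Per the study's methods, the knockout allele removes the stretch of *Ctdsp1* intron 4 that encodes miRNA-26b. A floxed allele was first made in embryonic stem cells of another strain. The deletion followed in mice crossed to a CreERT2 line and given tamoxifen, where the promoter of the Cre is not given in the sources used here, and the Cre was then bred out. The labels name endothelial cells as the cell type, but the summed level of 8 smooth muscle markers was 31439 to 42351 CPM, against 647 to 1995 CPM for 10 endothelial markers. Smooth muscle transcripts thus exceeded endothelial ones in every library, and the samples are called aortas here.

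As background, these families carry short-range and long-range signals that steer growing axons and also shape blood vessels. Semaphorins signal through plexins, and most secreted class 3 semaphorins need a neuropilin as coreceptor. Ephrins are bound to the cell surface and signal both into the cell with the Eph receptor and back into their own cell. In vessels, ephrin-B2 marks arterial and EphB4 venous endothelium. Slits are secreted proteins that bind Robo receptors, of which Robo4 is found mainly in endothelium.

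MicroRNAs repress transcripts that hold, in the 3′ untranslated region (UTR), a match to the seed, bases 2 to 8 of the mature microRNA. The sequences below show the seed of the deleted miRNA-26b-5p, the same seed in its relative miRNA-26a-5p, and the stretches of 3 members that hold the full match to it. Capitals mark the seed in the microRNAs and its 8-letter match TACTTGAA in the 3′ UTRs, given 5′ to 3′ on the strand of the gene.
miR-26b-5p: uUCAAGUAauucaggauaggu
miR-26a-5p: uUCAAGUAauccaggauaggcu
Plxna2: ttacagtaagcaaTACTTGAA
Epha2: ccgtgcccaacaaTACTTGAA
Sema6d: aagactgaacaaaTACTTGAA
The microRNAs are those of RefSeq for GRCm38, at chr1:74394324-74394344 for miRNA-26b-5p and chr9:119031811-119031832 for this copy of miRNA-26a-5p, both on the plus strand. Each stretch of a member lies in its last exon on the plus strand of GRCm38, at chr1:194813255-194813275 in exon 32 of 32 of *Plxna2*, chr4:141328530-141328550 in exon 17 of 17 of *Epha2* and chr2:124665608-124665628 in exon 19 of 19 of *Sema6d*. An 8-letter match was found in 4 of the 50 members tested (8.0%), the other one being *Sema6a*, and in 4.92% of the 13464 genes tested that have an annotated 3′ UTR. The 3′ UTRs searched had a median length of 1633 bases for these members and 1205 bases for those genes, and the shares were not adjusted for length. A match on these letters is a description of the sequence and not a measured binding site.

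Library totals were 25706728 to 33345037 counts, so that 3 counts, the limit set by a count of 0, correspond to 0.0893 to 0.117 CPM, for counting error only. *Mir26b* itself had no counts in 5 libraries and 20 in WT2, and libraries of messenger RNA do not measure the mature microRNA, so the deletion could not be checked from these values. The host gene *Ctdsp1* stood at 201, 182 and 182 CPM in KO1, KO2 and KO3 and at 148, 166 and 179 CPM in WT1, WT2 and WT3. *Ctdsp1* transcripts were thus present in both groups. Every knockout value was above every wild-type value, and 11.5% of all genes tested had groups without overlap in either direction.

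No member differed between the genotypes at an adjusted p under 0.05 in edgeR's quasi-likelihood test, for which the share over all genes tested was 0.00624%, a single gene. The smallest adjusted p among the members was 0.736 with edgeR, and neither DESeq2, where it was 0.450, nor limma voom, where it was 0.869, gave one under 0.05. At an unadjusted p under 0.05, 4 of the 50 members (8.0%) stood out, close to the 6.47% of all genes tested. The transmembrane semaphorin *Sema5a* and the ephrin *Efnb3* had the higher level in miRNA-26b-/- mice, 2 members where the share over all genes tested was 3.4%. *Efnb3* passed the filter on low counts only through KO1 and KO2, where it was high, so its direction followed from its entry into the test. The ligand *Slit3* and the semaphorin receptor *Plxna2* had the lower level, 2 members where it was 3.07%. The CPM of the groups did not overlap for 2 members (4.0%), *Sema3b* and *Sema6a*, against 11.5% of all genes tested. The median log2 fold change was -0.03 over the 50 members, of which 23 were positive, and 0.01 over all genes tested. Fold changes are miRNA-26b-/- over miRNA-26b+/+ throughout.

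**Figure D1:**
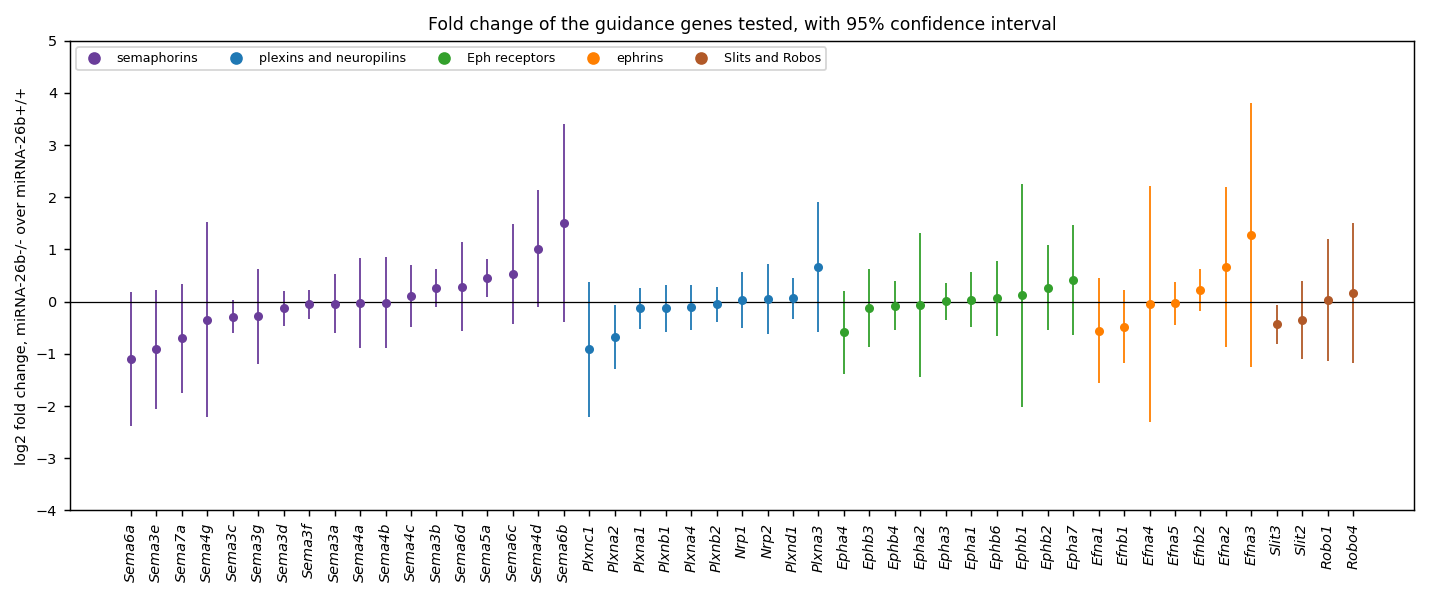
The log2 fold change of miRNA-26b-/- over miRNA-26b+/+ aortas (vertical axis) is shown for 49 of the 50 guidance genes tested, by family, as points with 95% confidence intervals from edgeR, 3 mice per group. Only the intervals of *Sema5a*, *Plxna2* and *Slit3* leave out 0, before any adjustment for the number of genes; *Efnb3*, at or near 0 counts in 4 of the 6 libraries, is left out.

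Levels were compared between genes as RPKM, which scales the reads of a gene to its exon length and to the size of the library. A mean level of at least 1 RPKM was reached by 34 of the 60 members and 10 RPKM by 13 of them. The 3 members with the highest levels held 41.5% of the RPKM summed over all members. *Slit3* led with a mean of 85 RPKM (57.8 to 101 over the 6 libraries), followed by the semaphorins *Sema3f* with 45.9 (43.9 to 48.8) and *Sema3c* with 40.0 (30.1 to 46.7). The range of *Slit3* lay above that of *Sema3f* in all libraries, whereas *Sema3f* and *Sema3c* overlapped. The receptor *Plxnb2* had 29.2 RPKM (24.7 to 35.0), and below it *Sema3b*, *Efnb2*, *Efna5* and *Sema3d*, with means of 18.7, 18.1, 16.2 and 16.0 RPKM, overlapped in range.

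**Figure D2:**
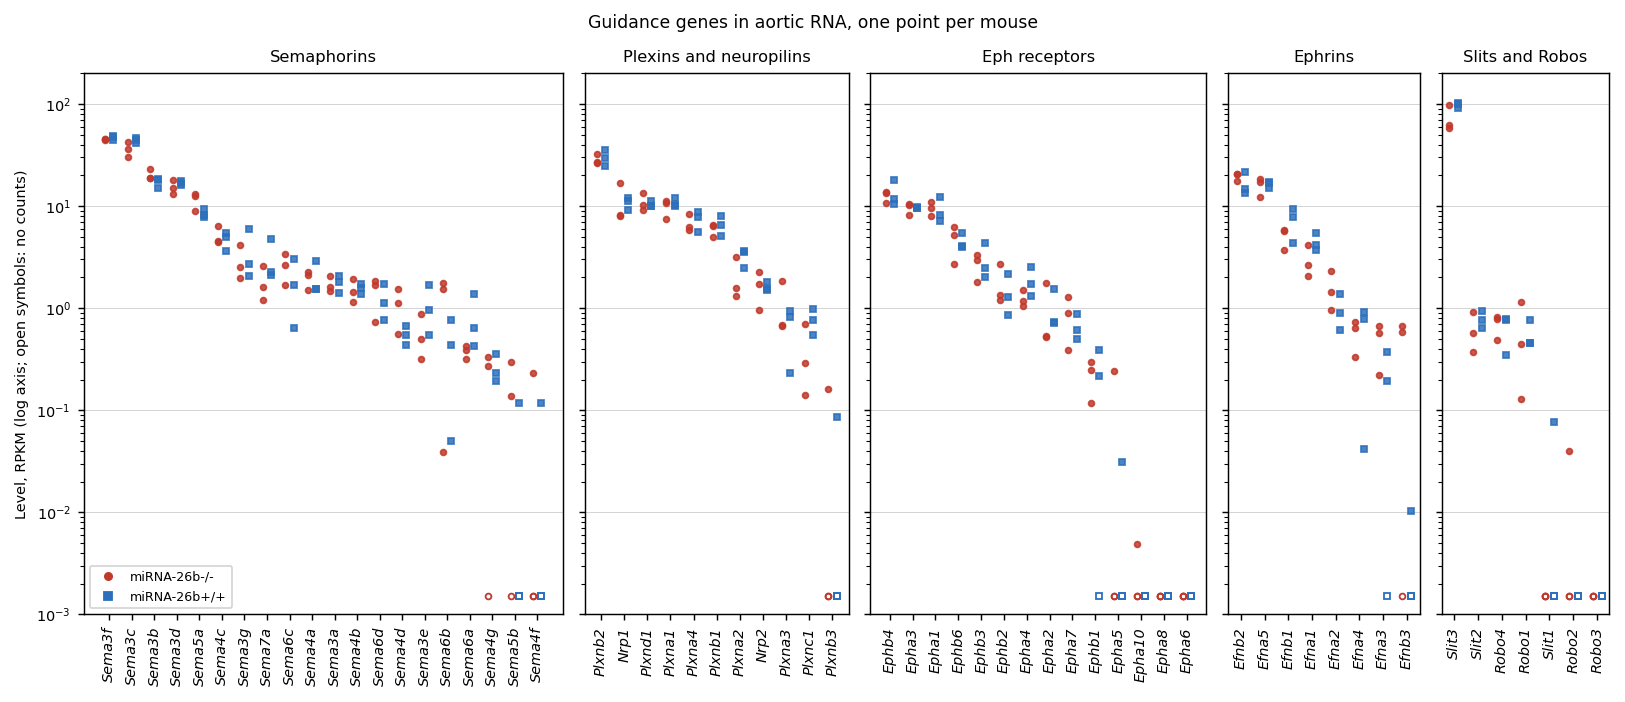
The level of all 60 guidance genes is plotted in RPKM on a log axis, 1 point per mouse, with circles for miRNA-26b-/- and squares for miRNA-26b+/+ mice and open symbols at the foot for libraries with no counts. *Slit3* is the highest member, and the groups overlap for all members tested but *Sema3b* and *Sema6a*.

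The semaphorins were dominated by the secreted class 3. Its 7 members summed to 112, 120 and 134 RPKM in KO1, KO2 and KO3 and to 127, 135 and 130 RPKM in WT1, WT2 and WT3, so the groups overlapped. *Sema3f*, a ligand for neuropilin-2 that repels growing vessels and axons, was at 235, 236 and 231 CPM in miRNA-26b-/- and at 228, 246 and 254 CPM in miRNA-26b+/+ mice. Its log2 fold change of -0.05 had a 95% confidence interval of -0.34 to 0.23. *Sema3c*, which guides neural crest cells into the cardiac outflow tract, measured 215, 259 and 300 CPM against 334, 314 and 295 CPM, with KO1 and KO2 below all others and a log2 fold change of -0.28 (interval -0.60 to 0.03, adjusted p = 0.785 with edgeR). The secreted ligand *Sema3b* was one of the 2 members without overlap, at 90.3, 90.5 and 111 CPM in the knockout and 71.0, 87.1 and 85.3 CPM in the wild-type mice. The gap between the groups was small beside the spread within them, with a log2 fold change of 0.26 (interval -0.10 to 0.63) and p = 0.1 in the two-sided exact permutation test, the smallest value that 3 against 3 mice can give.

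*Sema5a*, a transmembrane semaphorin with thrombospondin repeats that binds plexin-B3, had the smallest unadjusted p among the members. It was read at 236, 247 and 166 CPM in KO1, KO2 and KO3 and at 177, 152 and 146 CPM in WT1, WT2 and WT3. KO1 and KO2 were above all other libraries, and KO3 lay within the wild-type range. The means were 217 ± 44.0 and 158 ± 16.2 CPM (SD, n = 3 each), or a fold change on the log2 scale of 0.45 (SE 0.170, adjusted p = 0.736 with edgeR). *Sema5a* (ENSMUSG00000022231) is on the plus strand at chr15:32244810-32696341 and made up 99.1% of the summed RPKM of class 5, since *Sema5b* had counts in 3 libraries only.

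Without overlap on the lower side was *Sema6a*, a transmembrane semaphorin that binds plexin-A2 and plexin-A4. Its CPM was 3.71, 2.77 and 3.43 in miRNA-26b-/- and 3.78, 12 and 5.62 in miRNA-26b+/+ mice, a log2 fold change of -1.10 (interval -2.38 to 0.18, adjusted p = 0.793 with edgeR). WT2 alone was far above the others, and WT1 exceeded KO1 by less than the spread in either group. *Sema3e*, the ligand of plexin-D1, was at 8.12, 4.64 and 2.94 CPM in the knockout and 8.87, 15.6 and 5.02 CPM in the wild-type mice, again with WT2 as the highest library (log2 fold change -0.92, interval -2.06 to 0.23). The largest positive value of the family belonged to *Sema6b*, a ligand of plexin-A4, at 0.156, 6.07 and 7.01 CPM against 1.73, 3.06 and 0.198 CPM. KO1 was the lowest of all 6 libraries for it, which left a log2 fold change of 1.51 with an interval of -0.39 to 3.41.

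Among the receptors of the semaphorins, *Plxna2* (ENSMUSG00000026640, plus strand of chr1:194618218-194816869) was the member at an unadjusted p under 0.05. Plexin-A2 pairs with neuropilins for class 3 ligands and also binds Sema6A directly. *Plxna2* measured 22.6, 27.2 and 53.9 CPM in KO1, KO2 and KO3 and 42.1, 62.6 and 61.3 CPM in WT1, WT2 and WT3. KO1 and KO2 were the lowest libraries and KO3 fell within the wild-type range. The means of 34.6 ± 16.9 and 55.3 ± 11.4 CPM (SD, n = 3 each) gave a log2 fold change of -0.68 (SE 0.288, adjusted p = 0.741 with edgeR). *Plxna2* also holds one of the 8-letter matches shown above, and *Sema6a* another.

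Both neuropilins differed between the knockout libraries. *Nrp1*, the coreceptor of class 3 semaphorins and of VEGF-A, was at 78.1, 79.2 and 166 CPM in KO1, KO2 and KO3, against 90.2, 118 and 109 CPM in the wild-type mice. KO1 and KO2 were the lowest and KO3 the highest of the 6 libraries, so the group means were alike at 108 ± 50.6 and 106 ± 14.1 CPM (SD, n = 3 each; log2 fold change 0.03, interval -0.51 to 0.57). Without KO3 the log2 fold change of *Nrp1* was -0.42, with an adjusted p = 0.399 in edgeR. *Nrp2* went from 11.4 CPM in KO1 to 20.6 in KO2 and 26.5 in KO3, where the wild-type libraries held 18.2, 21.1 and 17.9 CPM (log2 fold change 0.05, interval -0.63 to 0.73). KO1 was thus the lowest and KO3 the highest library for both neuropilins.

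The plexins with the highest levels differed less between libraries. *Plxnb2*, a receptor for class 4 semaphorins, was at 211, 204 and 250 CPM in the knockout and 191, 228 and 270 CPM in the wild-type mice, a log2 fold change of -0.05 (interval -0.39 to 0.29). *Plxnd1*, the endothelial receptor that holds back vessel growth towards Sema3E, was at 66.7, 74.2 and 97.5 CPM against 73.0, 82.2 and 73.4 CPM (log2 fold change 0.06, interval -0.33 to 0.46). *Plxnc1*, the receptor of Sema7A, had the most negative value of the receptors, with 1.17, 5.86 and 2.44 CPM against 4.6, 8.22 and 6.34 CPM (log2 fold change -0.91, interval -2.20 to 0.38). KO2 lay within the wild-type range of *Plxnc1*, and KO1 was the lowest library. The other 4 plexins tested ranged in log2 fold change between -0.13 for *Plxna1* and 0.67 for *Plxna3*.

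Of the ephrins, all 8 were tested. *Efnb2*, the arterial ligand, was at 141, 120 and 141 CPM in miRNA-26b-/- and 149, 91.3 and 102 CPM in miRNA-26b+/+ mice (log2 fold change 0.23, interval -0.17 to 0.63). *Efna5*, a lipid-anchored ligand, was at 49.9, 74.8 and 69.0 CPM against 69.8, 67.7 and 61.1 CPM (log2 fold change -0.03, interval -0.44 to 0.38). *Efnb1*, which binds mainly EphB receptors, was at 19.5, 20.3 and 12.8 CPM against 32.0, 26.7 and 14.9 CPM (log2 fold change -0.48, interval -1.17 to 0.22). The highest and the lowest library of *Efnb2* were both wild type, and the groups overlapped for these 3 ligands.

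*Efnb3* (ENSMUSG00000003934, minus strand of chr11:69554092-69560205), a neuronal ephrin, was read in KO1 and KO2 with 48 and 71 counts (1.87 and 2.11 CPM), and had 0 counts in KO3. The wild-type libraries had 0, 0 and 1 count. The ratio of the summed counts, 119 against 1, was 120 after scaling for library size, with an exact 95% interval of 21.2 to 4792 that covers counting error only and not the split between the knockout mice. Its adjusted p was 0.748 with edgeR, and the two-sided exact permutation test over the mice gave p = 0.4. *Efna3*, another ephrin at the edge of detection, was at 1.64, 0.536 and 1.38 CPM against 0.913, 0.473 and 0 CPM, with a log2 fold change of 1.28 and an interval of -1.25 to 3.81. *Efnb3* and *Efna3* passed the filter only through knockout libraries, so their positive fold changes are no separate result.

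No Eph receptor had an unadjusted p under 0.05, and the log2 fold changes of the 10 receptors tested ranged from -0.59 to 0.42. *Ephb4*, the venous receptor of ephrin-B2, had the highest mean level of the family per length (13.0 RPKM) and stood at 49.3, 62.1 and 64.2 CPM in the knockout and 54.4, 83.3 and 48.5 CPM in the wild-type mice (log2 fold change -0.07, interval -0.55 to 0.40). *Epha3*, a receptor of A-type ephrins, was among the steadiest, at 71.2, 90.5 and 89.2 CPM against 84.0, 84.2 and 82.3 CPM (log2 fold change 0.01, interval -0.35 to 0.37). *Epha1* was at 42.7, 31.5 and 37.7 CPM against 31.9, 28.3 and 47.8 CPM (log2 fold change 0.04, interval -0.49 to 0.56). The groups overlapped for each of these receptors. Reads were counted without strand, and *Ephb4* and *Epha1* overlap *Zan* and *Zyx* on the other strand, so reads of these pairs cannot be told apart.

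*Epha4*, which binds ephrins of both types, lies 2.97 Mb from *Mir26b* on chromosome 1 and is with *Nrp2*, at 11.58 Mb, one of the members within 20 Mb of the deleted locus. It was read at 9.48, 8.54 and 12.1 CPM in the knockout and 10.5, 14 and 20.6 CPM in the wild-type mice. KO3 lay between WT1 and WT2, and the log2 fold change was -0.59 (interval -1.38 to 0.21, adjusted p = 0.844 with edgeR).

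*Slit3* (ENSMUSG00000056427, plus strand of chr11:35121224-35708507) made up 99.2% of the summed RPKM of the Slits. It was read at 351, 380 and 586 CPM in KO1, KO2 and KO3 and at 548, 614 and 613 CPM in WT1, WT2 and WT3. KO1 and KO2 were below all other libraries, while KO3 stood within the wild-type range. The means were 439 ± 128 and 592 ± 37.6 CPM (SD, n = 3 each), or a fold change on the log2 scale of -0.43 (SE 0.174, adjusted p = 0.736 with edgeR). Leaving out KO3, the log2 fold change of *Slit3* became -0.69 with an adjusted p = 0.0288 in edgeR, the only setting of those run in which a member passed adjustment. Without KO3 the share of all genes tested with an adjusted p under 0.05 was 0.524%. *Slit2*, the ligand best known from the midline of the nervous system, was at 14.6, 9.44 and 23.4 CPM against 19.3, 16.2 and 23.8 CPM, a log2 fold change of -0.35 (interval -1.09 to 0.39).

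The Robo receptors were scarce in these aortas. Their summed level was 0.616, 1.26 and 1.97 RPKM in KO1, KO2 and KO3 and 1.55, 1.22 and 0.809 RPKM in WT1, WT2 and WT3. *Robo4* was at 2.58, 4.11 and 4.39 CPM in the knockout and 4.11, 4.08 and 1.85 CPM in the wild-type mice, with a log2 fold change of 0.17 (interval -1.17 to 1.51). *Robo1*, the broadly expressed Slit receptor, went from 2.15 CPM in KO1 over 7.41 in KO2 to 18.8 in KO3, an 8.78-fold range within a genotype, against 12.8, 7.53 and 7.60 CPM in the wild-type mice. The groups overlapped for both receptors. Per length, the Slits exceeded the Robos by 94.8, 49.9 and 49.5 times in the knockout and by 58.9, 83.2 and 126 times in the wild-type libraries. These ratios depend on the deposited exon lengths, which were 6067 bases for *Slit3*, 25433 for *Slit2*, 16511 for *Robo1* and 5302 for *Robo4*.

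The guidance genes also differed between libraries of the same genotype. KO1 was the lowest library for 18 of the 50 members tested (36.0%), against 20.4% of all genes tested, and KO3 the highest for 15 (30.0%), against 19.99%. The SD of log2 CPM was larger in the knockout than in the wild type for 52.0% of the members tested, against 57.9% of all genes tested. Among the 44 members with at least 20 counts in every library, KO1 and KO2 were the 2 lowest libraries for 9 (20.5%), against 10.99% of the 12920 genes with such counts. These were *Epha2*, *Epha4*, *Nrp1*, *Plxna2*, *Robo1*, *Sema3c*, *Sema3d*, *Slit2* and *Slit3*. KO1 and KO2 were the 2 highest libraries for *Sema5a* alone (2.27%, against 9.4%). Pairs of mixed genotype had larger shares too, with KO1 and WT3 as the 2 lowest for 7 members (15.9%, against 6.51%) and KO3 and WT2 as the 2 highest for 7 (15.9%, against 6.73%). Each was the largest share of a mixed pair in its direction, picked from all pairs of libraries. Among pairs of 1 genotype, WT2 and WT3 were the 2 highest for 6 members (13.6%, against 7.29%). These shares describe the libraries, and genes are not independent of each other.

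**Figure D3:**
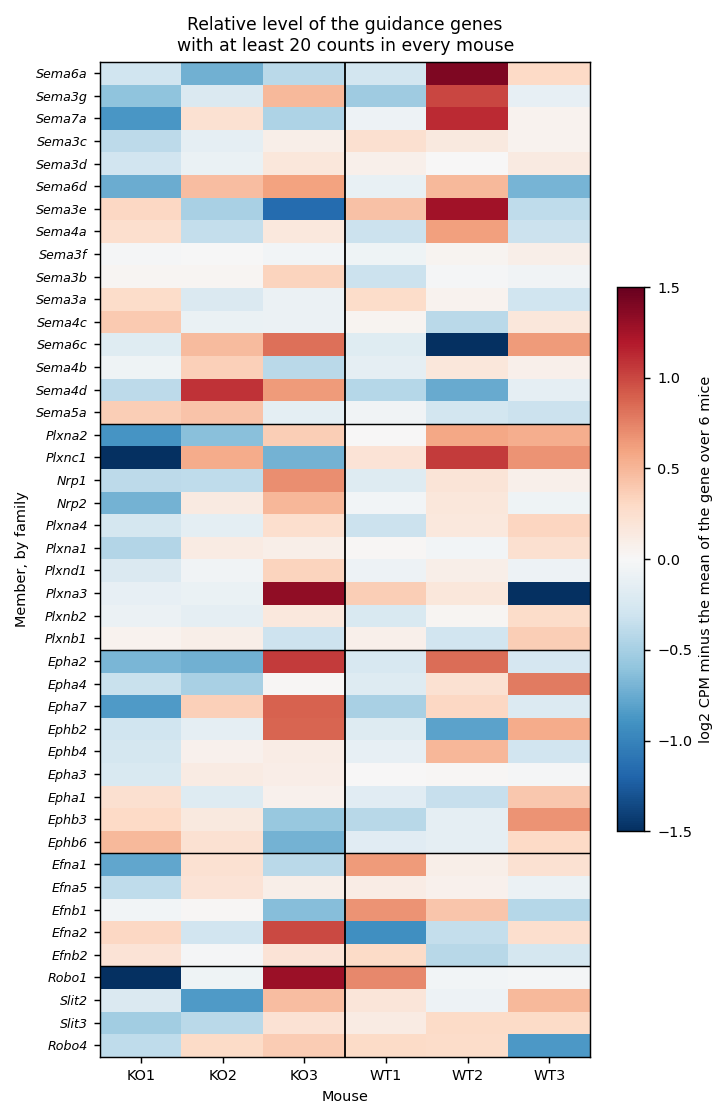
Colour shows log2 CPM minus the mean of the gene over the 6 mice, with values beyond 1.5 in either direction drawn at the end of the scale, for the 44 guidance genes with at least 20 counts in every mouse (rows, by family) in each mouse (columns, knockout left of the line). *Slit3*, *Plxna2*, *Nrp1* and *Epha2* are low in KO1 and KO2 and not in KO3.

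The summed level of the endothelial markers also split the knockout libraries. It was 647, 688 and 1995 CPM in KO1, KO2 and KO3 and 1421, 1918 and 1721 CPM in WT1, WT2 and WT3, with none of the 10 markers at 0 in any library and 2 of 10 lower in the knockout at an unadjusted p under 0.05. For all marker lists, the share over all genes tested at this threshold was 3.4% higher and 3.07% lower. The 2 lowest libraries were KO1 and KO2 for 7 of the 10 markers, and not for *Egfl7*, *Erg* and *Esam*. *Pecam1*, an adhesion molecule between endothelial cells and the largest part of the sum, was at 184, 174 and 716 CPM against 487, 630 and 593 CPM. *Tek*, the angiopoietin receptor of endothelium, was at 22.8, 22.1 and 116 CPM against 88.9, 129 and 101 CPM, whereas *Erg*, an endothelial transcription factor, was at 75.3, 59.2 and 97.8 CPM against 62.1, 67.1 and 79.4 CPM. KO1 and KO2 were not the 2 lowest libraries for *Efnb2*, *Ephb4*, *Plxnd1* and *Robo4*, members linked above to endothelium, though no list of such members was set beforehand. *Ephb4* was at 49.3, 62.1 and 64.2 CPM against 54.4, 83.3 and 48.5 CPM. *Efnb2* was at 141, 120 and 141 CPM against 149, 91.3 and 102 CPM. *Plxnd1* was at 66.7, 74.2 and 97.5 CPM against 73.0, 82.2 and 73.4 CPM, and *Robo4* at 2.58, 4.11 and 4.39 CPM against 4.11, 4.08 and 1.85 CPM. *Slit3*, *Plxna2* and *Nrp1* did share with the endothelial sum their low values in KO1 and KO2. Macrophage markers, at 248, 313 and 732 CPM against 439, 474 and 504 CPM, and the lymphatic markers, at 24.5, 46.2 and 72.8 CPM against 56.2, 71.7 and 54.7 CPM, were likewise lowest in KO1 and KO2, with 0 of 6 and 0 of 4 past an unadjusted p of 0.05 and *Prox1* at 0 in KO3. KO1 and KO2 were the 2 lowest libraries for 5 of 6 macrophage, 2 of 4 lymphatic, 4 of 7 fibroblast and 1 of 8 smooth muscle markers. Over the 12920 genes with at least 20 counts in every library this share was 10.99%. The part of these markers in the values of the guidance genes was not tested. In bulk RNA, fewer cells of a type and less RNA per cell cannot be told apart.

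Schwann cell markers stood higher in the knockout, at 306, 252 and 171 CPM against 41.2, 76.5 and 112 CPM, with 8 of 9 at an unadjusted p under 0.05 (3.4% of all genes tested). *Ncmap* was at 0 in WT1 and passed the filter on low counts only through knockout libraries. KO1 and KO2 were the highest libraries for the Schwann cell sum as they were for *Sema5a*. In KO3 the sum was above every wild-type library, whereas *Sema5a*, at 166 CPM, was within the wild-type range. From WT1 over WT2 to WT3 the sum rose while *Sema5a* fell, at 177, 152 and 146 CPM. Skeletal muscle markers summed to 30.6, 88.2 and 8.39 CPM against 6.49, 11.2 and 3.24 CPM, with 5 of 6 higher at an unadjusted p under 0.05 (3.4% of all genes tested). *Myh4* was at 0 in KO3 and in all wild-type libraries and *Mylpf* at 0 in the wild type. *Tnnt3* was at 0 in WT1 and WT2, and *Tnni2* at 0 in KO3, WT1 and WT2. *Mylpf*, *Tnnt3* and *Myh4* passed the filter on low counts only through knockout libraries, so they could only come out higher. *Efnb3*, read in KO1 and KO2, shared the 2 highest libraries with the skeletal muscle sum as well as with the Schwann cell sum. In KO3 *Efnb3* had 0 counts, the skeletal muscle sum lay within the wild-type range and the Schwann cell sum lay above it. The part of either list in the values of *Sema5a* and *Efnb3* was not tested.

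**Figure D4:**
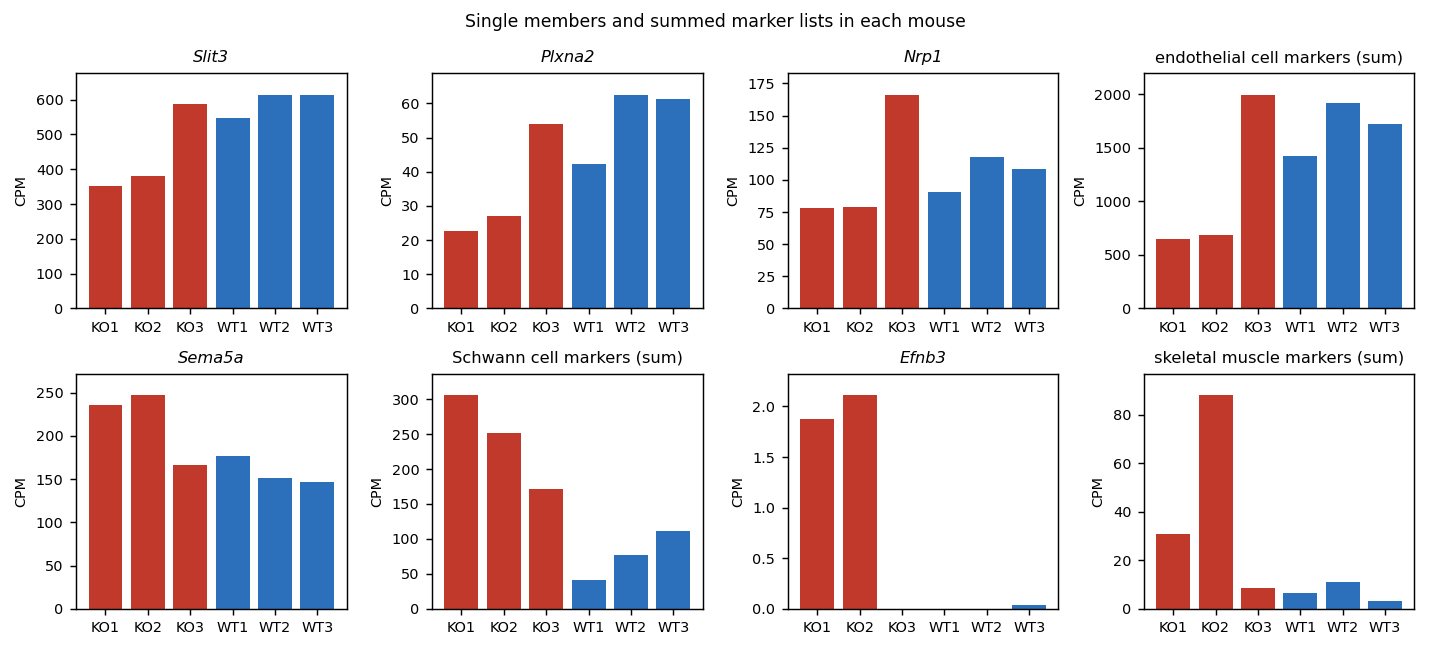
Bars give CPM in each of the 6 mice, from 0, for *Slit3*, *Plxna2*, *Nrp1*, *Sema5a* and *Efnb3* and for the summed markers of endothelium, Schwann cells and skeletal muscle, with knockout mice in red and wild-type mice in blue. *Slit3*, *Plxna2*, *Nrp1* and the endothelial sum are low in KO1 and KO2, where *Sema5a*, *Efnb3*, the Schwann cell sum and the skeletal muscle sum are high. Of the latter, only the Schwann cell sum is also above all wild-type mice in KO3.

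Sympathetic neuron markers were high in KO2, with 481 CPM against 82.7 to 162 CPM in the other libraries, and *Dbh* and *Th* were at 0 in KO1, KO3, WT1 and WT3. Of the 8 markers tested, 3 were higher at an unadjusted p under 0.05 (3.4% of all genes tested). They were *Th*, *Slc6a2* and *Tubb3*, each far highest in KO2. Members that failed the filter were in part read in that library. *Epha5* had 137 counts in KO2, 16 in WT1 and 0 elsewhere, and *Robo2* had 23 counts in KO2 only. *Plxnb3* had 35 counts in KO2 and 17 in WT3, and *Sema4f* had 41 in KO2 and 17 in WT2. These 4 genes were grouped here by their counts in KO2, the library with the largest total, so that KO2 was the highest for each is no separate result. The part of the neuronal markers in their counts was not tested. The remaining untested members were *Sema5b*, with 25, 59 and 23 counts in KO1, KO3 and WT2, *Slit1* with 14 counts in WT1, *Epha10* with 1 count in KO3, and *Epha6*, *Epha8* and *Robo3*, with 0 counts in all libraries. The other lists, fibroblasts (4520 to 8169 CPM in the knockout and 4922 to 5597 CPM in the wild type, 0 of 7 past an unadjusted p of 0.05), adipocytes (544 to 1867 and 467 to 1332 CPM, 0 of 7) and smooth muscle (31439 to 39821 and 34445 to 42351 CPM, 1 of 8 lower), overlapped between the groups.

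The 4 members with an 8-letter match to the miRNA-26b-5p seed had log2 fold changes of -1.10 (*Sema6a*), -0.68 (*Plxna2*), -0.07 (*Epha2*) and 0.29 (*Sema6d*). Their median of -0.37 compares with -0.02 for the 46 members without such a match, and over the 13464 genes tested with an annotated 3′ UTR the medians were 0.02 with and 0.02 without it. So 1 of the 4 was higher in the knockout than in the wild type, against 22 of the 46 members without a match and 341 of the 662 genes tested with one. With 4 genes, neither the median nor this count is a result about the match. *Epha2*, a receptor of ephrin-A1, was at 2.5, 2.44 and 8.32 CPM against 3.39, 7.17 and 3.37 CPM. *Sema6d*, a ligand of plexin-A1, was at 7.69, 17.8 and 19.7 CPM against 12, 18.1 and 8 CPM. Both overlapped between the groups. Counting the shorter 7-letter matches too, 7 of 50 members (14%) and 21.4% of those 13464 genes held a match.

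Genes that work with these families were read against the 3.4% of all genes tested that were higher and the 3.07% that were lower at an unadjusted p under 0.05. Of 25 semaphorin partners tested, 0 were higher and 1 lower in the knockout at an unadjusted p under 0.05, the integrin subunit *Itgb1*, which had 2361, 2133 and 2155 CPM against 2651, 2736 and 2814 CPM. Of 15 partners of Slits and Robos tested, again 0 were higher and 1 lower, the Slit-binding dystroglycan *Dag1*, with 523, 567 and 520 CPM against 590, 648 and 719 CPM. For both genes the groups did not overlap, which held for 11.5% of all genes tested. Their log2 fold changes were -0.30 (SE 0.114, adjusted p = 0.736 with edgeR) for *Itgb1* and -0.28 (SE 0.129, adjusted p = 0.756 with edgeR) for *Dag1*. The groups also did not overlap for the partners *Itga1*, *Arhgef11* and *Itsn1*, which were lower in the knockout, and *Chn1*, which was higher. Of 16 ephrin partners tested, 0 were past the unadjusted threshold in either direction, and the secreted protein *Nell1* had 0 counts in all libraries.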

How the data were processed

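Reads had been mapped with STAR to GRCm38, and per the file headers the authors obtained the deposited counts with featureCounts 1.6.4 over the exons of each gene name of GENCODE M21, while the study's methods name another release. Counting ignored strand, and a read over several genes counted for each (14 members overlap another gene). The second deposited table, which holds the authors' log2 CPM and their own fold changes and p-values, was not used. The deposited counts were scaled by TMM and compared with the quasi-likelihood F-test (edgeR 4.0.16, R 4.3.3, prior count 0.125). Genes entered with a count sum of 2 or more and a CPM over 1 in 2 or more libraries, and adjustment was by Benjamini-Hochberg over all 16017 of them. The procedure was run on simulated counts with independent libraries. That run cannot show how it performs with splits between knockout libraries such as those seen here. RPKM uses the deposited exon length. With 1 library per mouse, p-values measure the spread between mice.

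The longest 3′ UTR that GENCODE M21 annotates for a gene was searched, on its own strand, for matches to the seed. The 8-letter match TACTTGAA pairs with the seed and has an A opposite base 1, and the 7-letter matches lack an end of it.

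Members, marker lists and partner lists were chosen with earlier results of these data known. Named with values were the members with an unadjusted p under 0.05, the 3 with the highest RPKM of each family, the 3 largest positive and negative fold changes, those within 20 Mb of *Mir26b* and those not tested. *Robo1*, *Epha2*, *Sema6d*, *Plxna1*, *Plxna3* and *Sema3d* were named after their values were seen. Alternatives were DESeq2 1.42.0, voom of limma 3.58.1, scaling by library size or upper quartile, other filters, a prior count of 2 and leaving out each library. The single values of 1 gene of the marker lists are not reported here.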

Additional observations from a re-analysis of the deposited data

How the results depend on the processing

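Over the 7 alternatives that kept all libraries and could change these counts, 3 to 4 members had an unadjusted p under 0.05, with 4.58% to 6.49% of all genes tested. An adjusted p under 0.05 was held by 0 members, with 0% to 0.356% of all genes tested. Leaving out 1 library at a time, the unadjusted count ranged from 0 (without WT2, with 4.97% of all genes tested) to 6 (without KO3, with 10.8%). The adjusted count ranged from 0 to 1 (*Slit3*, without KO3, with 0.524% of all genes tested). The members whose groups did not overlap ranged from 2 (without WT2, with 19.9% of all genes tested) to 13 (without KO3, with 26.8%). *Nrp1* ranged from a log2 fold change of -0.42 without KO3 to 0.22 without KO2, and its sign was also negative without WT1 and with voom. The unadjusted call of *Plxna2* was lost with the earlier quasi-likelihood method of edgeR, chosen after the data were seen, and that of *Efnb3* with voom and without any 1 wild-type library, while *Efnb3* was not tested with filterByExpr or without KO1 or KO2. *Slit3*, *Sema5a* and *Plxna2* each lost the unadjusted call without KO1, without KO2, without WT2 and without WT3. The causes were not tested. No paired analysis was possible because the labels give the mice no shared numbers. With 3 mice per group no exact permutation test can pass 0.05, and members near 1 CPM have intervals of several log2 units.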
